A study of Mus musculus with 11 samples.

Results

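The 6 mice described here were the PBS-injected animals of an 11-mouse RNA sequencing experiment on retinal vascular endothelial cells, and they were chosen by the treatment in their sample labels. All 11 mice were C57BL/6 pups in the oxygen-induced retinopathy (OIR) model, in which high oxygen closes part of the growing retinal vasculature and the return to room air is followed by hypoxia and abnormal vessel growth. The 6 mice received 0.5 µL of PBS into the vitreous on postnatal day 12, and CD31+CD45- cells were sorted on day 17. The other 5 mice received oncostatin M (OSM) in place of PBS, and no PBS value below is a contrast with them. The 2 retinas of a mouse were pooled into 1 library, so n is the number of mice. The sources used here do not say if the left and right eye of each mouse were injected alike, and the study's methods also mention PBS injections into contralateral eyes. The mice came from 3 litters, each of which went through its own OIR run: mice 3 and 4 (called litter 1), mice 7 and 8 (litter 2) and mice 10 and 11 (litter 3). A litter and its OIR run cannot be told apart. Mice kept in room air were not analysed here, so no level below is a response to OIR. The count columns of mice 10 and 11 are headed M11_PBS and M12_PBS, and either reading leaves treatment and litter as they are.

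Endothelial cells line all vessels, and those of the retina form the inner blood-retina barrier: tight junctions seal the gaps between them, vesicle transport is held low, and transporters for glucose, amino acids and lipids carry nutrients across. In a growing or regrowing vessel bed, tip cells at the sprouting front sense vascular endothelial growth factor (VEGF) and lay down basement membrane, while the stalk, arterial, venous and capillary cells behind them keep other programmes of genes. CD31, encoded by Pecam1, is carried by endothelial cells, and CD45, encoded by Ptprc, by leukocytes, so the levels of these 2 genes follow from the sort and are not results.

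The libraries held 26697990 to 35151928 reads assigned to genes (median 32175603), and 96.8% to 98.7% of them lay in protein-coding genes. Of 55359 genes in the files, 26607 had a read in any of the 6 mice and 12536 had a read in all 6. Mouse 3 stood apart from the rest. It had the lowest depth and yet 20898 genes with a read, against 16635 to 17446 in the other 5 mice. Of its genes, 2956 had no read in any other PBS mouse, and 2030 of those held only 1 to 3 reads. Together they took 0.0592% of its reads. Without mouse 3, the number of genes with a read fell to 23651. The reason for the difference was not tested. Levels are compared between genes as TPM, reads divided by merged exon length and scaled to the same total in each library, and between mice as CPM, counts scaled to library size, with TMM normalisation, which corrects for library composition.

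On the TPM scale, 14636 genes had a mean of at least 1, 8134 of at least 10, 1692 of at least 100 and 103 of at least 1000. The 103 genes of at least 1000 TPM held 35.0% of all TPM. Detection was nearly complete above 10 TPM, where 99.1% of genes had a read in every mouse. Between 1 and 10 TPM it was 59.1% of 6502 genes, so a gene at this level was often listed at 0 in some mice. The median over the 26426 genes that had a read and a length was 1.54 TPM, and 30.8% of them reached 10 TPM. These values are the background for the gene lists below.

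The sorted cells carried the endothelial markers at high levels in every mouse. Cldn5, the tight junction protein claudin-5, was at 14907, 12357, 14015, 16908, 12622 and 13657 TPM in mice 3, 4, 7, 8, 10 and 11, a mean of 14078 ± 1671 (SD, n = 6) and rank 7 of all genes. Cd34, a sialomucin of vascular and progenitor cells, was at 851, 889, 705, 912, 737 and 746 TPM in the same order. Vwf, the carrier of clotting factor VIII stored in endothelial granules, was at 799, 775, 454, 526, 756 and 721 TPM. The lowest Cldn5 value lay above the highest value of the other 4 markers, and Vwf was lower in both mice of litter 2 than in the other 4 mice.

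Pecam1, the sorted antigen, was at 671, 754, 390, 527, 568 and 543 TPM. Cdh5, the adherens junction protein VE-cadherin, was at 408, 408, 321, 362, 451 and 455 TPM. The means of Cd34 (807), Vwf (672), Pecam1 (576) and Cdh5 (401 TPM) ranked 133, 179, 212 and 355, but the ranges of neighbours in this order overlapped between mice. Cldn5 lies at chr16:18595597-18597012 (GRCm39) on the plus strand, and its merged exons cover 1416 bases. With lengths of the Ensembl canonical transcript in place of merged exons, Cldn5 was still at rank 7 but Cd34 rose to rank 31 and Cdh5 fell to rank 723, so the order of the other markers rests on the length used.

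All 24 genes of the endothelial identity list had at least 100 TPM, with a list median of 609 TPM against 1.54 TPM over all genes. After Cldn5, the highest were Esam, an endothelial adhesion molecule, at 3172 ± 362 TPM, and Tie1, an orphan receptor that pairs with the angiopoietin receptor, at 1694 ± 244 TPM (SD, n = 6). The lowest was Emcn, the sialomucin endomucin of venous and capillary cells, at 228 ± 34.4 TPM. This order within the list rests on merged exon lengths. The canonical transcript of Emcn has 2622 bases against 6598 merged, and that of Podxl 5392 against 5512. With canonical lengths Emcn lay above Podxl and was not the lowest, and Cd34 lay above Tie1. Summed over the list, the mice ranged from 28802 TPM in mouse 7 to 35404 TPM in mouse 8, and the 2 extremes were littermates.

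Endothelial transcription factors were lower, with a median of 112 TPM over 22 genes, 20 of which reached 10 TPM. Sox18, a SOX factor of vascular development, led at 1840 ± 163 TPM. It was followed by Lmo2, a bridging cofactor of blood and vessel development, at 674 ± 60.2 TPM and by Klf2, the flow-responsive Krüppel-like factor, at 641 ± 147 TPM. Erg, an ETS factor that maintains endothelial identity, was at 50.1 ± 9.11 TPM. Foxc2, a forkhead factor of lymphatic and venous valves, was at 2.56 ± 2.34 TPM and had no read in 2 mice.

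The barrier genes were among the highest in the data. All 18 had at least 100 TPM and 8 had at least 1000, with a median of 557 TPM. Bsg, the chaperone of lactate transporters also called basigin, reached 18480 ± 3654 TPM. Slc2a1, the glucose transporter GLUT1, was at 4758, 4726, 2595, 3632, 2983 and 2727 TPM in mice 3, 4, 7, 8, 10 and 11, and Slc7a5, the large neutral amino acid transporter LAT1, averaged 3212 ± 943 TPM. Both mice of litter 1 lay above the other 4 mice for Slc2a1.

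Mfsd2a, the lipid transporter that holds back transcytosis, was at 1061, 1161, 637, 1239, 922 and 989 TPM. Plvap, the diaphragm protein of fenestrae and of leaky vessels, was at 279, 92.0, 170, 142, 235 and 158 TPM. The lowest Mfsd2a value lay above the highest Plvap value, so Mfsd2a exceeded Plvap in every mouse. Plvap was one of the 9 genes of the caveolae and diaphragm list, whose median was 190 TPM and whose leading members were Cav1 (433 ± 99.7 TPM), the main caveolar coat protein, and the caveolar cavins Cavin3 (408 ± 39.6 TPM) and Cavin1 (384 ± 66.6 TPM).

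Junction genes were spread over a wide range. Behind Cldn5 and Esam came F11r, the junctional adhesion molecule JAM-A, at 701 ± 101 TPM, and Ocln, occludin, at 126 ± 29.1 TPM. Of 18 listed genes, 13 reached 10 TPM. Cldn12 was at 9.98 ± 5.39 TPM, Cldn1 at 0.260 ± 0.516 TPM with reads in 3 mice, and Cgn, cingulin, had reads in 1 mouse. Cldn3 had no read in any of the 6 mice, so of the 4 claudins listed only Cldn5 was above 10 TPM. In the norrin and beta-catenin list, which signals for barrier formation in the retina, the receptor Fzd4 was at 124 ± 33.4 TPM and its coreceptor Tspan12 at 162 ± 42.3 TPM. Ndp, the ligand norrin, which glia supply in the retina, was at 0.755 ± 1.64 TPM and had reads in 2 mice. The feedback target Axin2 was at 1.74 ± 0.294 TPM and the targets Apcdd1 and Lef1 at 120 ± 32.4 and 51.4 ± 12.2 TPM.

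Arterial and venous markers were both present in the pooled cells. All 17 arterial genes reached 10 TPM, with a median of 59.5 TPM, led by the gap junction protein Gja4 (connexin 37) at 758 ± 149 TPM, the matrix protein Mgp at 551 ± 183 TPM and the Notch ligand Dll4 at 366 ± 89.7 TPM. The 14 venous genes had a median of 24.7 TPM, and 11 reached 10 TPM. The highest was Aplnr, the apelin receptor, at 2042, 2067, 1958, 2629, 1923 and 2232 TPM in mice 3, 4, 7, 8, 10 and 11, which ranked 33 in all. Ephb4, the venous ephrin receptor, was at 371 ± 67.8 TPM. Nr2f2, the factor that sets venous fate, was at 12.8 ± 3.53 TPM. Of the adhesion molecules that bind leukocytes, Icam1 was at 222 ± 39.9 TPM and Vcam1 at 31.2 ± 11.5 TPM, while Sele (E-selectin) was at 6.45 ± 4.33 TPM and Selp (P-selectin) had reads in 2 mice only. In such bulk samples, fewer cells of a type and less RNA per cell cannot be told apart.

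Genes of tip cells and sprouting were abundant, with a median of 421 TPM over 19 genes, 13 of which were at 100 TPM or more. The basement membrane collagens Col4a1 and Col4a2 led the list at 4744 ± 1356 and 2769 ± 740 TPM. Apln, the apelin peptide of tip cells, was at 918, 1406, 450, 502, 470 and 474 TPM in mice 3, 4, 7, 8, 10 and 11. Angpt2, the vessel-destabilising angiopoietin, was at 376, 458, 158, 110, 215 and 138 TPM. For Apln and Angpt2, both mice of litter 1 lay above the other 4 mice. Esm1, a secreted proteoglycan often used as a tip cell marker, did not follow that order, with 129, 55.0, 79.5, 26.7, 167 and 45.6 TPM.

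Among the VEGF genes, the receptors Kdr and Flt1 were highest. Kdr (VEGFR2) was at 989 ± 269 TPM, Flt1 (VEGFR1) at 495 ± 115 TPM, Nrp1 at 144 ± 24.3 TPM and Flt4 (VEGFR3) at 95.3 ± 27.2 TPM. Vegfa, the main hypoxia-induced ligand, was at 8.46, 1.36, 3.04, 2.20, 4.89 and 23.0 TPM, which lay below every Kdr value. In the angiopoietin family, Tek, the receptor Tie2, was at 423 ± 93.2 TPM and the phosphatase Ptprb, which removes its phosphates, at 410 ± 151 TPM. The mural cell ligand Angpt1 was at 0.853 ± 1.23 TPM with reads in 3 mice.

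In the Notch pathway Notch4 (155 ± 17.6 TPM) exceeded Notch1 (71.3 ± 21.2 TPM), and Notch2 and Notch3 were at 4.05 ± 2.42 and 8.00 ± 3.66 TPM. Dll4 was the highest ligand, ahead of Jag2 at 176 ± 31.8 and Jag1 at 100 ± 36.9 TPM. The TGF-beta and BMP list was led by the target genes Id3 (2100 ± 211 TPM) and Id1 (652 ± 77.0 TPM), with the endothelial coreceptor Eng at 616 ± 154 TPM and the receptor Acvrl1 (ALK1) at 374 ± 59.3 TPM.

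The receptor genes of the OSM family stayed under 50 TPM in the PBS mice. Osmr, the OSM receptor chain, was at 23.7, 22.9, 9.84, 11.6, 17.3 and 23.0 TPM in mice 3, 4, 7, 8, 10 and 11. Il6st, the shared signaling chain gp130, was at 46.1, 48.1, 24.6, 33.1, 44.0 and 45.1 TPM. Both genes were lowest in the 2 mice of litter 2. Lifr, the receptor chain of leukemia inhibitory factor, was at 13.6 ± 4.87 TPM, and Il6ra and Cntfr, the receptor chains for interleukin-6 and ciliary neurotrophic factor, had means of 0.713 and 0.291 TPM. All 6 genes of the family had reads in all 6 mice, with a list median of 15.8 TPM.

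Matrix genes had the highest median of any list, 639 TPM over 16 genes. Sparc, a collagen-binding matrix protein, was at 15844 ± 870 TPM, rank 6 of all genes, and its lowest and highest values were 14426 TPM in mouse 10 and 17068 TPM in mouse 4. Igfbp7, a secreted protein of vascular basement membrane, was at 4141 ± 379 TPM, and Fn1, fibronectin, was at 1181 ± 338 TPM. Lama4 (364 ± 92.6 TPM) exceeded Lama5 (39.2 ± 8.41 TPM) among the endothelial laminin alpha chains.

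Glycolytic genes had a median of 152 TPM over 15 genes, led by the lactate-forming Ldha at 1398 ± 184 TPM. Hk1 was at 125 ± 22.1 TPM, whereas the other hexokinase listed, Hk2, was at 0.631 ± 1.35 TPM with no read in 1 mouse. Of 18 hypoxia response genes, 15 reached 10 TPM. Besides Slc2a1 and Ldha, they were led by Adm, the vasoactive peptide adrenomedullin, at 859, 1676, 570, 646, 583 and 509 TPM, which was highest in both mice of litter 1. Epas1 (HIF-2 alpha) at 232 ± 40.3 TPM exceeded Hif1a at 87.0 ± 19.9 TPM.

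All 24 proliferation genes had reads in all 6 mice, and 21 reached 10 TPM. The replication helicase gene Mcm6 was highest at 187 ± 30.6 TPM, followed by Cdc20, an activator of mitotic exit, at 167 ± 57.5 TPM and by the polymerase clamp Pcna at 116 ± 19.5 TPM. The summed level was highest in litter 3, at 1677 and 1750 TPM in mice 10 and 11 against 1260 to 1390 TPM in the other 4 mice. Interferon and MHC class I genes were led by H2-D1 (2026 ± 196 TPM), Ifitm3 (1733 ± 177 TPM) and B2m (1436 ± 270 TPM), while the interferon-induced Mx1 had reads in 1 mouse only.

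**Figure D1:**
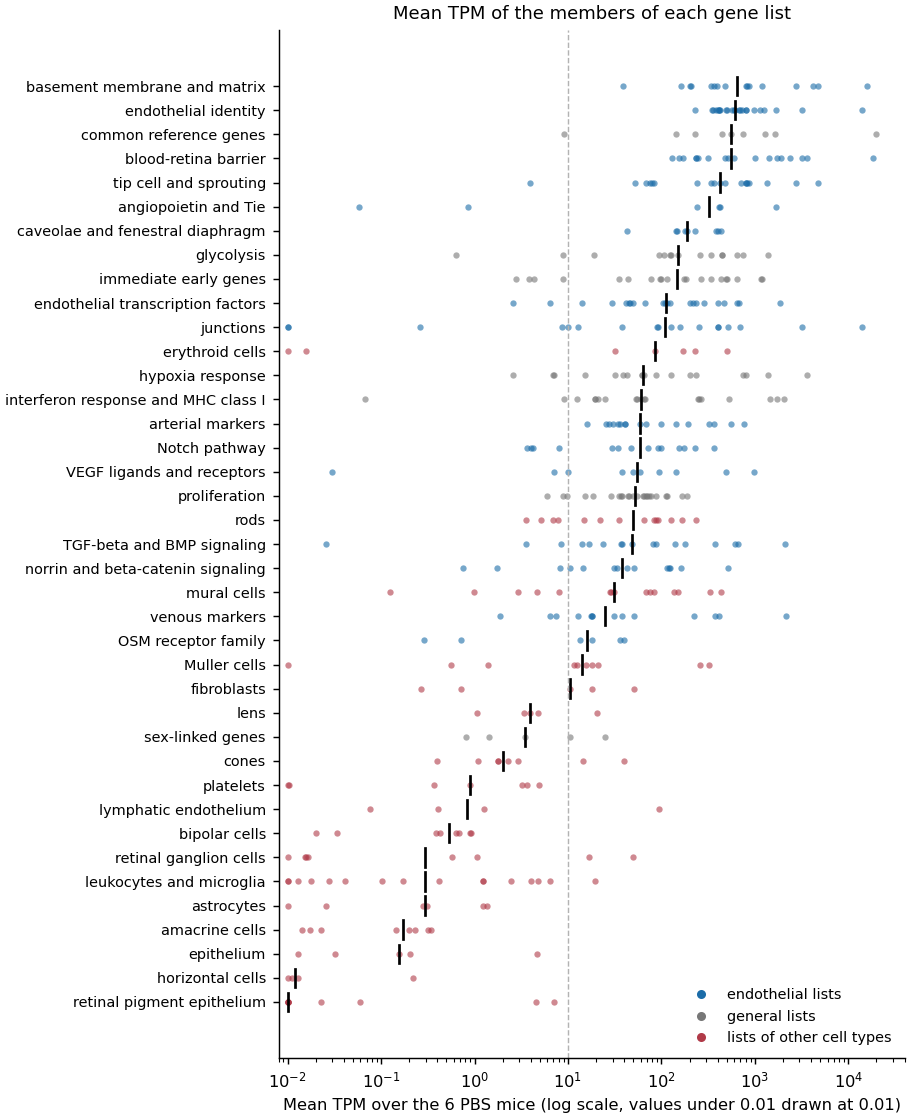
Mean TPM over the 6 PBS mice (log axis) of each member of 39 gene lists, one row a list, with a black line at the list median and a dashed line at 10 TPM. Lists of matrix, endothelial identity, common reference and barrier genes sit at the top with medians of 639, 609, 560 and 557 TPM. Most lists of other cell types lie at the bottom, with rods, mural and erythroid cells between.

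The highest gene of all was Tmsb4x, the actin-sequestering thymosin beta 4, at 30742 ± 1860 TPM, followed outside the mitochondrial genome by Actb (19596 ± 1641 TPM), Bsg, Sparc and Cldn5. Among the 30 highest outside the mitochondrial genome were the endothelial or barrier genes Cldn5, Bsg, Esam, Slc2a1, Slc7a5, Slc38a5 and Itm2a, the matrix genes Sparc, Vwa1, Col4a1, Col4a2 and Igfbp7, and the receptor Aplnr. Others of the 30 were Tmsb4x, Tmsb10, Actb and Pfn1 of the actin system, Gnai2 and Gng11 of signaling, Gpx1 and Fth1 of redox and iron handling, Cox6a1 and Atp5f1b of respiration, and Id3, H2-D1, Crip2, Cst3, Mir6236 and Rn18s-rs5. The 6 mice shared 9 of their 10 highest genes, 77 of their 100 highest and 382 of their 500 highest. Of the 100 genes with the highest mean, 72 stayed among the 100 highest with canonical transcript lengths and 64 on the CPM scale without length, so membership of this group depends on the length.

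**Figure D2:**
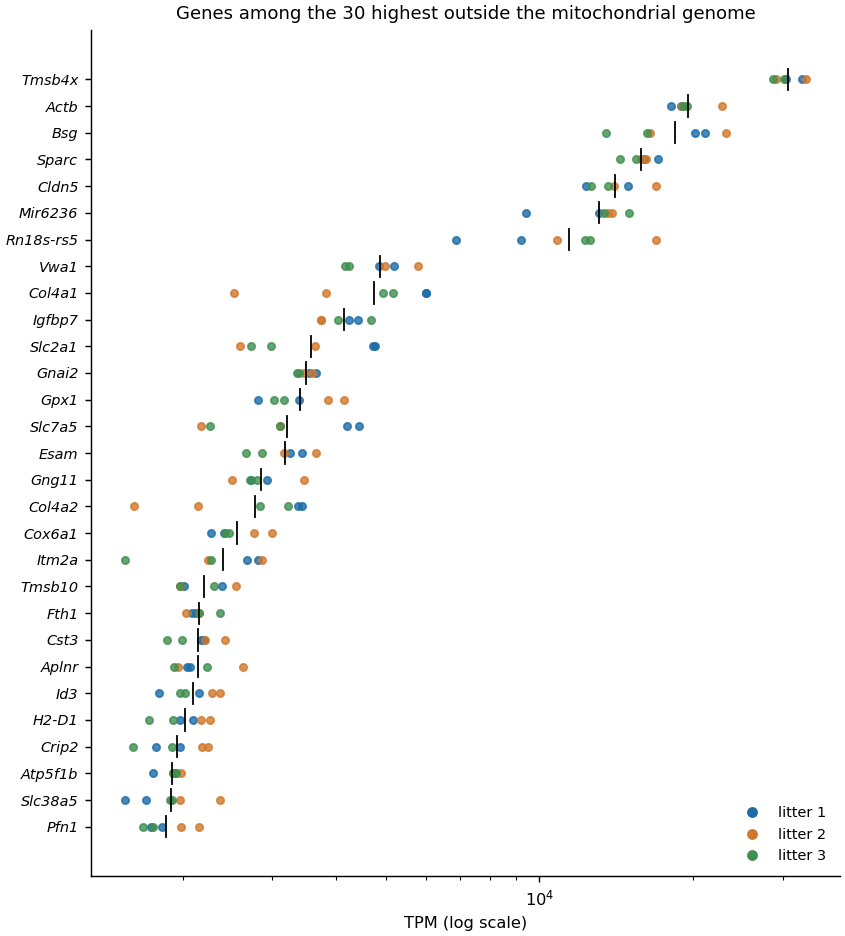
TPM (log axis) of genes among the 30 highest outside the mitochondrial genome in each of the 6 PBS mice, coloured by litter, with a black line at the mean. Tmsb4x lies at 28732 TPM or more in every mouse, and litter 1 and litter 2 separate for Col4a1, Col4a2 and Slc7a5.

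Rank 8 was held by Mir6236, which is annotated as a microRNA gene at chr9:110110355-110110477 (GRCm39) on the plus strand. Its level was 13077 ± 1902 TPM over an annotated length of 123 bases, and only 362 ± 58.2 CPM (SD, n = 6), since a short length raises TPM. A library primed on poly(A) tails does not select mature microRNAs, so these reads do not measure the mature form. The mature sequence that RefSeq gives for the locus is shown because the name is easily read as a microRNA level, with the seed (bases 2 to 8) in capitals.
mmu-miR-6236: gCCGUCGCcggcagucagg
Mir6236 and Rn18s-rs5, an annotated ribosomal RNA gene at 11444 ± 3431 TPM, were both lowest in mouse 4.

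Mitochondrial genes took 1.30% to 3.02% of the reads of a library. The highest were mt-Rnr2, a ribosomal RNA, at 21012 ± 7662 TPM and mt-Cytb, cytochrome b, at 18837 ± 5267 TPM. Of the 13 protein-coding genes of the mitochondrial genome, 4 were listed at 0 in all 6 mice, namely mt-Atp8, mt-Atp6, mt-Co3 and mt-Nd4l, and mt-Co2 had 9 reads in mouse 11 and none elsewhere. The genes mt-Co2, mt-Atp8, mt-Atp6 and mt-Co3 are neighbours between bases 7013 and 9390 of chromosome M, and mt-Nd3, just after them, had 70 to 314 reads a mouse. Before this stretch mt-Co1 had 48129 to 152723 reads, and mt-Nd4, which follows mt-Nd3 and mt-Nd4l, had 16632 to 45049 reads. All of these genes belong to respiratory chain complexes or to ATP synthase, which every such cell uses. These zeros are therefore not read as absence of expression, and the mitochondrial share covers only the genes that were counted. The choice of these genes followed a look at their counts.

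Markers of other cell types ranged from absent to clearly present. Ptprc, the gene of the antigen sorted against, was at 0.0411 ± 0.0805 TPM. The leukocyte and microglia list had a median of 0.296 TPM over 16 genes, 1 of which reached 10 TPM, and Tmem119 and Cd3e had no read in any mouse. Its summed level was 53.2, 148, 3.77, 14.2, 9.86 and 13.6 TPM in mice 3, 4, 7, 8, 10 and 11. Both mice of litter 1 were highest, and most of their sum came from the lysozyme gene Lyz2 and from Tyrobp, an adaptor of myeloid receptors.

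Mural cells, the pericytes and smooth muscle cells that wrap vessels, left a larger signal. The summed level of 15 mural genes was 1078, 1109, 2063, 448, 1305 and 2325 TPM in mice 3, 4, 7, 8, 10 and 11, against 28802 to 35404 TPM for the endothelial identity list. Vtn (437 ± 219 TPM), Rgs5 (332 ± 180 TPM) and the potassium channel subunit Kcnj8 (150 ± 71.5 TPM) led, all of them known from pericytes. Of the 15 genes, 13 reached 1 TPM and 10 reached 10 TPM, with a list median of 31.1 TPM. The members under 1 TPM were the smooth muscle genes Myh11 and Cnn1, at 0.998 ± 1.98 and 0.124 ± 0.110 TPM. Acta2 and Tagln, also smooth muscle genes of the list, were among those that reached 1 TPM. The mural sum differed 5.19-fold between mouse 8 and mouse 11, and the 2 mice of litter 2 lay on either side of both mice of litter 1.

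Rod genes had reads in all 6 mice for all 14 members, with a median of 49.7 TPM. Their sum was 568, 730, 1018, 840, 1992 and 560 TPM, so mouse 10 was highest. Gnat1, rod transducin and the highest of them, was at 236 ± 142 TPM. Cone genes were highest in mouse 10 too, with a sum of 166 TPM against 30.2 to 63.8 TPM in the other 5 mice.

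Müller cell genes had a median of 14.1 TPM over 10 genes, 7 of which reached 10 TPM. They were led by Apoe (319 ± 86.6 TPM) and Glul (262 ± 46.0 TPM). The members under 1 TPM were Aqp4, the water channel of glial end-feet, at 0.00436 TPM and the potassium channel gene Kcnj10 at 0.555 TPM. Horizontal, amacrine, bipolar, astrocyte and pigment epithelium lists had medians under 1 TPM, and the pigment epithelium genes Lrat, Rgr, Tyrp1 and Mlana, the ganglion cell gene Slc17a6 and the platelet gene Treml1 had no read in any mouse. In the lymphatic list Flt4 was at 95.3 TPM, but the defining factor Prox1 was at 0.0759 ± 0.132 TPM with reads in 2 mice.

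Globin genes gave the erythroid list a sum of 918, 457, 1663, 1869, 347 and 850 TPM in mice 3, 4, 7, 8, 10 and 11. Both mice of litter 2 lay above the other 4 mice for all 5 of its genes that reached 10 CPM, against 9.59% of 8876 genes at that level. Hbb-bs was at 494, 210, 803, 900, 216 and 414 TPM. Hba-a1 and Hba-a2, and Hbb-bs and Hbb-bt, are near copies whose reads can be split or lost in counting, so the single values are uncertain.

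**Figure D3:**
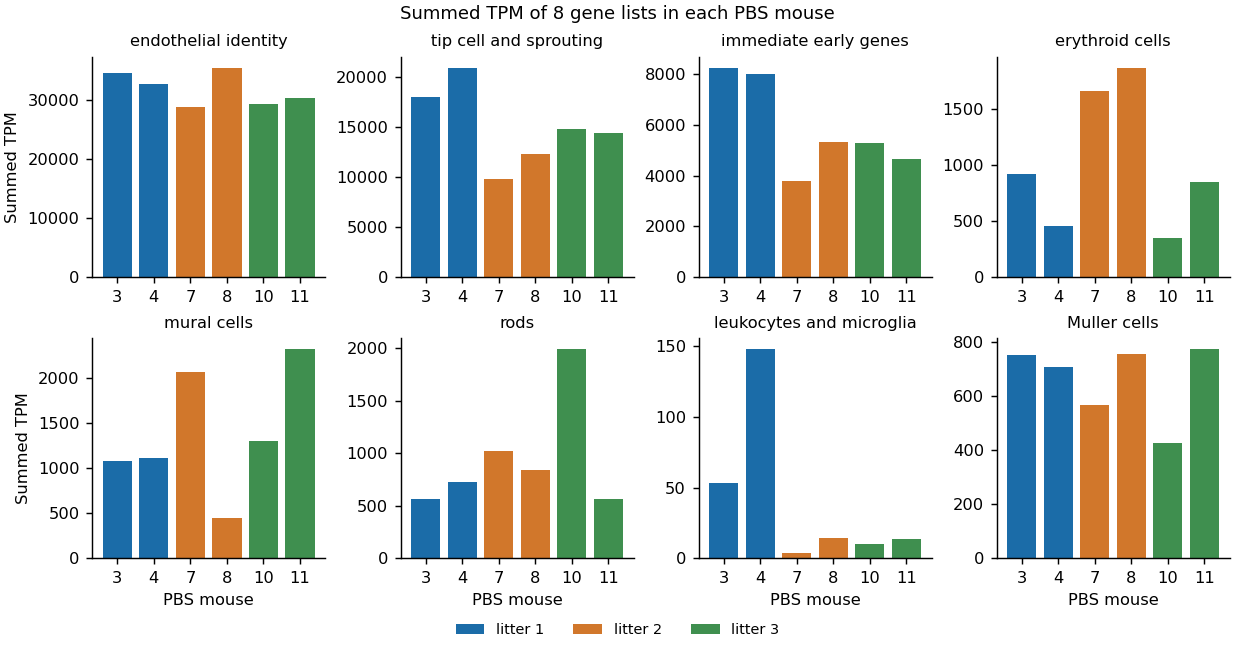
Summed TPM of 8 gene lists in each of the 6 PBS mice, one bar a mouse, coloured by litter, with every axis starting at 0. Endothelial identity differs little between mice, tip cell and immediate early genes are highest in mice 3 and 4, erythroid genes in mice 7 and 8, rods in mouse 10 and leukocyte genes in mouse 4.

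The spread between mice was measured as the coefficient of variation (CV), the SD as a percentage of the mean CPM. Its median was 24.6% over 8876 genes of at least 10 CPM and 16.5% over 2133 genes of at least 100 CPM. It fell from 73.9% between 1 and 10 CPM to 14.7% between 300 and 1000 CPM. From 1000 CPM it was 16.7% over 94 genes, so the fall did not go on.

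The steadiest gene of at least 100 CPM was Necap2, an endocytic adaptor gene, at 275, 260, 270, 272, 269 and 267 CPM in mice 3, 4, 7, 8, 10 and 11, a CV of 1.90%. The next were Naca (3.08%), Ap2m1 (3.15%), Tubb4b (3.37%), Sh3bgrl3 (3.74%), Rab11a, Srrt, Ssrp1, Dynll1 and Ppp2cb (4.20%). These genes were picked for their low CVs. Commonly used reference genes had a median CV of 10.6% over 9 genes, 8 of which had at least 100 TPM. The median was 24.6% over all genes of at least 10 CPM but 16.5% over those of at least 100 CPM. The 24.6% is therefore not a background at a like level. Actb had a CV of 9.97% and was highest in mouse 8.

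The 10 most variable genes of at least 100 CPM came from several of the lists above. Aqp1, a water channel, was at 80.6, 58.6, 209, 26.0, 345 and 152 CPM, a CV of 81.5%. Gnat1 (60.2%) is a rod gene, Rgs5 (52.9%) a pericyte gene and Hbb-bs (60.0%) a globin. Ccn2 (73.6%), a matricellular growth factor, Edn1 (54.9%), the vasoconstrictor endothelin-1, Angpt2 (56.6%) and Apln (52.9%) were each highest in both mice of litter 1. What other cell types and litter contribute to these spreads was not tested. Xist, also among the 10, is described with the sex-linked genes.

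**Figure D4:**
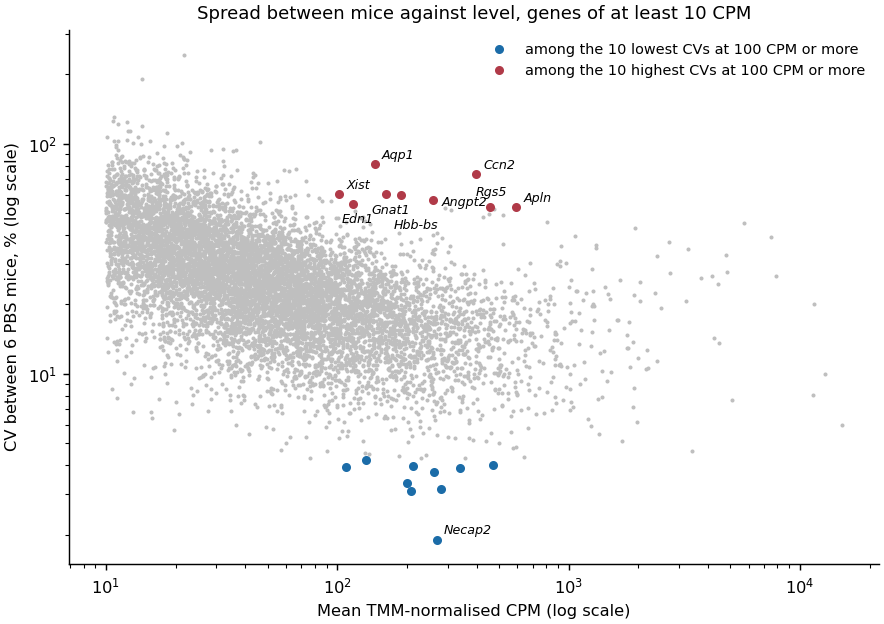
CV between the 6 PBS mice (log axis, percent) against mean TMM-normalised CPM (log axis) for genes of at least 10 CPM, with genes among the 10 lowest and the 10 highest CVs at 100 CPM or more coloured. Necap2 lies lowest at 1.90% and Aqp1 highest of the coloured genes at 81.5%.

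The spread was then set beside litter, the known batch. With 3 litters of 2 mice, differences between litters hold 40% of the degrees of freedom. Without litter differences this would be the mean share of the sum of squares. The values given next are medians over genes, so 40% is only a rough mark beside them. On log2 CPM, the between-litter share had a median of 45.4% over genes of at least 10 CPM, 55.6% from 100 CPM and 72.2% from 1000 CPM. Over 15388 genes, the mean correlation (Pearson's r of log2 CPM) was 0.873 for the 3 pairs of littermates, 0.861 to 0.883, and 0.867 for the 12 other pairs, 0.859 to 0.878. The difference of 0.00509 had p = 0.0667 in an exact permutation test (one-sided), which is the smallest value that the 15 ways of pairing 6 mice allow, so this test could not pass 0.05. These correlations are across genes, which are not independent replicates.

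A test of litter over all genes found no single gene at the adjusted threshold. In edgeR's quasi-likelihood test, 0 of 15388 genes (0%) had a Benjamini-Hochberg adjusted p under 0.05, the lowest adjusted p being 0.684, while 1117 genes (7.26%) had an unadjusted p under 0.05. The count rested on the test and on the filter on low counts. Without the filter edgeR called 241 genes, and the likelihood ratio test of DESeq2 called 323 genes with the filter and 525 without it. With mouse 7 left out edgeR called Xist, and with mouse 8 left out Lars2. The edgeR fit had 3 residual degrees of freedom.

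The 10 genes with the lowest p for litter are given as a description. Ccn2 was at 663, 858, 171, 159, 341 and 204 CPM in mice 3, 4, 7, 8, 10 and 11. Nr4a1, an orphan nuclear receptor and immediate early gene, was at 148, 148, 62.4, 50.2, 53.7 and 52.3 CPM. Edn1 was at 195, 190, 54.1, 54.8, 122 and 83.2 CPM. In all 3 genes both mice of litter 1 lay above the others.

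The same held for Apln, at 774, 1159, 403, 435, 398 and 390 CPM, for Depp1, a FOXO-regulated autophagy gene, at 654, 711, 297, 393, 300 and 214 CPM, and for Lyz2. Lyz2 was at 16.7, 68.1, 0.526, 0.174, 0.0587 and 0.0311 CPM, and it is itself a member of the leukocyte list, so the list sum is no separate measure. The mitochondrial genes mt-Cytb and mt-Nd5 were highest in litter 3: mt-Cytb was at 3530, 3369, 5172, 4308, 6671 and 5997 CPM. Chpf and the mitotic kinesin gene Kif11 were lowest in both mice of litter 2, where Kif11 was at 8.94 and 9.05 CPM against 30.8 to 44.5 CPM in the other 4 mice.

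**Figure D5:**
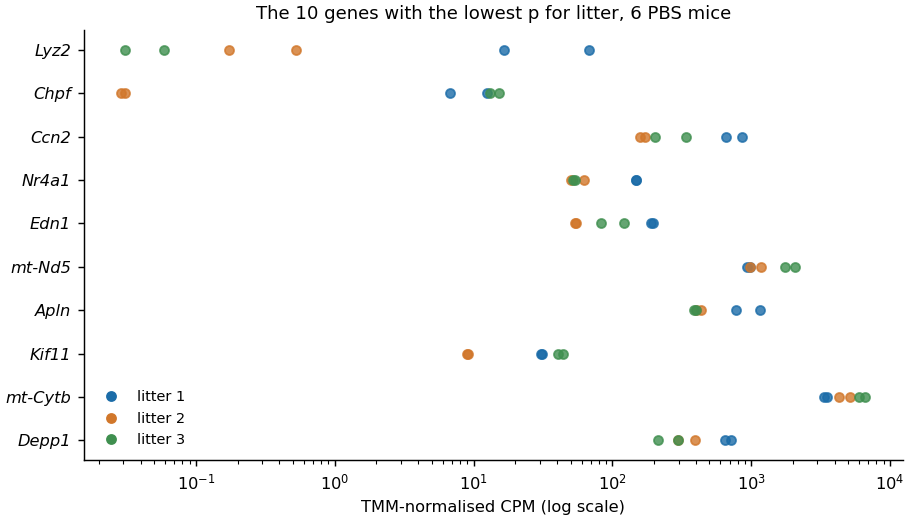
TMM-normalised CPM (log axis) of the 10 genes with the lowest p for litter in each of the 6 PBS mice, coloured by litter. Litter 1 lies highest for Lyz2, Ccn2, Nr4a1, Edn1, Apln and Depp1, and litter 3 for mt-Nd5, Kif11 and mt-Cytb.

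Immediate early genes, which cells transcribe within minutes of growth factors, flow or stress, had litter 1 at the top. Their summed level was 8258 and 7985 TPM in the mice of litter 1, 3777 and 5308 TPM in litter 2, and 5271 and 4670 TPM in litter 3. Of 17 members of at least 10 CPM, 12 (70.6%) lay above the other 4 mice in both mice of litter 1, against 11.2% of all 8876 genes at that level. Of 20 tested members, 12 had an unadjusted p under 0.05 for litter, against 7.26% of all genes tested, and 0 passed the adjusted threshold.

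Ccn1, a matricellular protein gene, was at 802, 805, 192, 382, 601 and 346 CPM in mice 3, 4, 7, 8, 10 and 11. Dusp1, a phosphatase that switches off MAP kinases, was at 807, 762, 227, 400, 325 and 322 CPM. Fos, a subunit of the AP-1 transcription factor, was at 442, 278, 144, 181, 287 and 229 CPM. Mice of litters 1 and 3 overlapped for Fos but not for Ccn1 or Dusp1. Myc went the other way and was lowest in litter 1. The heat shock genes Hspa1a and Hspa1b, near copies of each other, were at 2.77 ± 1.36 and 3.81 ± 2.12 TPM, far below Ier2, the highest member, at 1202 ± 235 TPM.

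Because 12 members shared this order of litters, the promoters of the 3 highest members with a window in the RefSeq table used here are shown, 250 bases before to 50 bases after the start of transcription, on the gene's strand and in build GRCm38.p6. Capitals mark the cyclic AMP response element TGACGTCA or the TATA motif TATAAA, each searched on both strands, and the CArG box of serum response factor was searched too. Ccn1 lies at chr3:145649936-145650235 on the minus strand, Dusp1 at chr17:26508423-26508722 on the minus strand and Junb, another AP-1 subunit gene, at chr8:84978699-84978998 on the minus strand.
Ccn1: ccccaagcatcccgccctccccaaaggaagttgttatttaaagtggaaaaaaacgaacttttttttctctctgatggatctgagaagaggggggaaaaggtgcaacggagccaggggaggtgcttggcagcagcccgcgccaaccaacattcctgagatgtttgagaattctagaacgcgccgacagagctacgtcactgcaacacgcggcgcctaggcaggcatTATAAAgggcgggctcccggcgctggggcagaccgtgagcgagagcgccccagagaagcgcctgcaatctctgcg
Dusp1: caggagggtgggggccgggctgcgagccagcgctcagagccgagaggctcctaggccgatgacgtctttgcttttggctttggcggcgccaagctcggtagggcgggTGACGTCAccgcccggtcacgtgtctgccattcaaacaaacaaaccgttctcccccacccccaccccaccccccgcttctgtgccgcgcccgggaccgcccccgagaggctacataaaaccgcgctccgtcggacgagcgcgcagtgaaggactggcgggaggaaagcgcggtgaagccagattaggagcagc
Junb: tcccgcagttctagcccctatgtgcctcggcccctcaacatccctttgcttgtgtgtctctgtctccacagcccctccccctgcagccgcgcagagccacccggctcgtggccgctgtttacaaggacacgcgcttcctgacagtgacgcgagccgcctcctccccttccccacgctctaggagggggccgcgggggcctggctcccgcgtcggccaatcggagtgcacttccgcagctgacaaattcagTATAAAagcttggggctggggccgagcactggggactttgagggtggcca
TGACGTCA was found in the window of Dusp1 and TATAAA in those of Ccn1 and Junb. Over the 17 of 20 list members with a window, TGACGTCA was present in 2 (11.8%), the CArG box in 1 (5.88%) and TATAAA in 3 (17.6%). Over all 27025 genes with a window, the shares were 1.88%, 1.57% and 14.2%. A match is a description of the letters in the window and not a bound site. Any link between these motifs and the order of litters was not tested.

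Litter 1 was at the top for members of other lists too. Of 18 tip cell and sprouting genes of at least 10 CPM, 12 (66.7%) were highest in both mice of litter 1, and the list sum was 18053 and 20971 TPM in litter 1, 9804 and 12316 TPM in litter 2 and 14816 and 14424 TPM in litter 3. Of 16 matrix genes, 9 (56.2%) were highest in both mice of litter 1, and 9 (56.2%) were lowest in both mice of litter 2, against 8.12% of all genes. The members of the tip and matrix lists overlap. Both mice of litter 1 were highest for 5 of 7 VEGF ligands and receptors (71.4%), 5 of 9 caveolae and diaphragm genes (55.6%), 8 of 17 interferon and MHC class I genes (47.1%), 8 of 20 endothelial transcription factors (40.0%) and 9 of 24 endothelial identity genes (37.5%), against the 11.2% of all genes given above. Kdr and Flt1 are in both the VEGF and the endothelial identity list. In edgeR's litter test, 0 of 9 tested VEGF genes had an unadjusted p under 0.05, against 7.26% of all genes tested. The counts were 10 of 19 for tip cell, 8 of 16 for matrix and 3 of 9 for caveolae and diaphragm genes. They were 7 of 18 for interferon and MHC class I genes, 5 of 22 for transcription factors and 11 of 24 for endothelial identity. For the proliferation list, 6 of 23 genes (26.1%) were highest in both mice of litter 3, against 6.44% of all genes. Of 15 hypoxia response genes, 6 were lowest in both mice of litter 3, and so were 5 of 14 glycolytic genes (35.7%), against 8.62% of all genes. Of the 7 mitochondrial protein-coding genes of at least 10 CPM, 5 (71.4%) were lowest in both mice of litter 1, against 9.04% of all genes.

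The OSM-injected littermates give these litter orders a second set of mice. Their summed immediate early gene level was 6878 and 8039 TPM in litter 1, 4146 and 3774 TPM in litter 2 and 4479 TPM in the single mouse of litter 3. Their share of reads in mitochondrial protein-coding genes was 0.683% and 0.635% in litter 1, 1.76% and 1.66% in litter 2 and 1.58% in litter 3, beside 0.921%, 0.862%, 1.62%, 1.15%, 1.98% and 1.68% in PBS mice 3, 4, 7, 8, 10 and 11. Litter 1 was therefore highest for the first measure and lowest for the second in both sets of mice. Of the 10 genes with the lowest p in the PBS mice, 7 had the same sign in the OSM mice for litter 2 against litter 1, beside 57.9% of the 14684 genes tested in both, and 6 had an unadjusted p under 0.05 there, against 9.78% of all 17472 genes tested. In the OSM mice, edgeR called 3 genes (0.0172%): mt-Nd1, mt-Co1 and mt-Cytb, each with an adjusted p of 0.0494, and 1709 genes had an unadjusted p under 0.05. With any 1 of the 5 mice left out, 0 or 1 gene was called there. Lyz2 did not follow, with 0.113 and 0.0564 CPM in the OSM mice of litter 1 and 5.53 CPM in mouse 5 of litter 2, without TMM. Chpf and Kif11 also had the opposite sign there for litter 2 against litter 1. Among the list sums, those of tip cell, matrix, VEGF and caveolae genes were highest in both OSM mice of litter 1. The interferon and MHC class I sum was not. It was 8050 and 8324 TPM in litter 1, 7142 and 9685 TPM in litter 2 and 10140 TPM in litter 3. Whether litter, OIR run, or a step of sorting or library preparation done with them set these orders cannot be told apart.

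Some genes had many reads in 1 mouse and none in another. A count of 0 is given as counted, and whether such a gene was expressed in that mouse was not tested. In all, 1584 genes had at least 100 reads in 1 mouse and none in another, and 12 had at least 1000. The largest were sex-linked. Xist, the RNA that silences an X chromosome in female cells, had 3085, 3689, 6083, 0, 3468 and 2714 reads in mice 3, 4, 7, 8, 10 and 11. The Y-linked genes Ddx3y and Eif2s3y had 4492 and 1722 reads in mouse 8, 15 and 5 reads in mouse 3, and none in the other 4 mice. Mouse 8 thus carried the Y-linked reads and no Xist, and the other 5 mice carried Xist.

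Among the 10 largest gaps, those outside the sex chromosomes were Loxl3, Mmp2, Axl, Xpo4, Kcne4, Cblb and Pde6c. Axl, a receptor tyrosine kinase, had 1012, 749, 1270, 0, 1379 and 813 reads. Mmp2, a matrix metalloproteinase, had 344, 0, 939, 489, 923 and 1501 reads. Pde6c, the cone phosphodiesterase, had 1040 reads in mouse 10, the mouse with the highest cone sum, and at most 3 in any other. Kcne4 had 54, 0, 658, 3, 379 and 1101 reads, and its 3 highest mice were also the 3 highest for the mural sum. Mouse 4 had no read of 5 of these 7 genes, namely Mmp2, Xpo4, Kcne4, Cblb and Pde6c, and mouse 8 none of Loxl3, Axl and Pde6c. Of the 1584 genes with such gaps, 714 had no read in mouse 4 and 320 had none in mouse 3, while the other 4 mice each lacked 567 to 627 of them.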

How the data were processed

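Per the labels and the study's methods, the authors made cDNA from the RNA of the sorted cells with a poly(A)-primed kit, enriched it by PCR and read it from one end. Alignment was with STAR to build GRCm39, and featureCounts assigned the reads to GENCODE genes. The deposited values are raw read counts per gene, not normalized. Since the reads carry no molecular identifiers, error is given as the SD over mice and not as a counting interval. Reads that match several places are not counted by featureCounts at its standard settings, which lowers genes with near copies. The mice of a group were separate animals, and no 2 of the 6 libraries were copies of each other: the lowest chi-square per gene over 15 pairs was 74.2 (genes of at least 20 reads).

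Symbols, positions and merged exon lengths came from GENCODE vM39, which lacked 610 of the 55359 genes. TPM was computed here from the counts and these lengths. CPM used TMM factors (0.967 to 1.03). Litter was tested with edgeR 4.0.16 in R 4.3.3: filterByExpr with a count minimum of 10, a robust quasi-likelihood fit, an F-test over the 3 litters and Benjamini-Hochberg adjustment at 0.05. The 5 OSM mice were fitted apart. DESeq2 1.42.0 was an alternative. Log2 CPM for correlations had a prior count of 2, and the between-litter share a pseudocount of 0.5. The litter test was tested on simulated data.

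Alternatives were other size factors, filters and lengths, thinning to the smallest library, mitochondrial genes left out of the total, and each mouse left out in turn. The genes named were the 5 markers, the 30 highest, the 10 lowest and highest CVs at 100 CPM, the 10 lowest p for litter, the leading and the unread members of each list, the sex-linked genes and the 10 largest gaps, of which a few genes are not reported here. The other members named, mostly ligands, receptors and litter-ordered genes, and the mitochondrial and ribosomal protein genes, were picked after their values were seen. The members and lists were chosen with earlier results of these data known. Promoter and miRNA sequences came from RefSeq tables of build GRCm38.p6, in which Ier2, Egr1 and Myc were not used here.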

Additional observations from a re-analysis of the deposited data

Results flagged for a closer look

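Over 64 quantities of the 6 PBS mice (library measures, list sums and the 5 markers), the most extreme mouse was set against the others by Dixon's ratio at its 95% critical value, which flags about 1 in 20 groups by chance. It set 12 apart. Mouse 3 was high for genes with a read (20898, and again 20898 after all libraries were thinned to its depth, where the next mouse had 16823), for genes found in no other PBS mouse (2956) and for genes with 1 to 5 reads (5615, next 2742).

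Mouse 3 was also high for the summed TGF-beta and BMP list (5018 TPM, next 4489 TPM). Mouse 7 had the largest share of reads in its 10 highest genes, 10.0%, next 8.86%. Mouse 8 was high for the summed reference genes (27893 TPM) and for the sex-linked list (96.8 TPM), where it alone lacked Xist. Mouse 4 was high for leukocyte and microglia genes (148 TPM) and for horizontal cell genes (1.25 TPM), a list with no member at a mean of 1 TPM. Mouse 10 was high for rod genes (1992 TPM) and cone genes (166 TPM). The quantities are not independent of each other, and the causes were not tested.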

How the results depend on the processing

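Of 121 recomputed values, 97 stayed within the spread between mice or within 1.5 times the count, with the same direction. The number of genes called for litter in the PBS mice, 0, became 241 without the filter on low counts, 525 with DESeq2's likelihood ratio test without that filter, 323 with the same test and the filter kept (chosen after seeing the data) and 3 with all 11 mice and treatment as a term (Depp1, Klf6 and mt-Co1, each with an adjusted p of 0.0216 in edgeR). Leaving out 1 mouse at a time gave 0 to 1: Xist without mouse 7 and Lars2 without mouse 8. Where only 1 mouse of a litter remained, it was assumed to vary like the others. For Xist that mouse was mouse 8, which had no Xist read. The lowest adjusted p was 0.0629 with at least 10 reads in every mouse, and over the edgeR settings it ran from 8.78e-53 without the filter to 0.896 without mouse 4. The causes were not tested. In the OSM mice, 3 calls became 15 without the filter and 0 to 1 with each mouse left out.

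The median percentile of a list among all genes moved by more than its SD between mice in these cases. On CPM without length, endothelial identity moved from 99.3 to 99.6, barrier from 99.1 to 99.3, tip cells from 98.7 to 98.2, rods from 87.2 to 77.8, leukocytes from 29.2 to 41.4, immediate early genes from 95.4 to 89.7 and proliferation from 88.4 to 85.2. With canonical transcript lengths, chosen after seeing the data, endothelial identity moved to 99.0, barrier to 98.7 and immediate early genes to 92.4, and with the longest transcript the last moved to 93.5. The median CV moved from 24.6% to 31.4% when genes from 1 CPM were included.

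No paired analysis was possible because the PBS and OSM mice share no replicate numbers and are not contrasted here. Litter was itself the term tested. At this depth 59.1% of genes between 1 and 10 TPM had a read in every mouse, and thinning to the smallest library left 14635 of at least 1 TPM, against 14636.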

Other observations

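Ribosomal protein genes, which were in no list and were looked at after their values were seen, were lowest in litter 1, as the mitochondrial genes were. Genes with Rpl and Rps symbols held 1.21% and 1.06% of the reads in mice 3 and 4. They held 1.65% and 1.42% in mice 7 and 8, and 1.52% and 1.48% in mice 10 and 11. These shares were taken by symbol and include S6 kinase genes, so they cover a wider set than the genes counted next. Of 74 ribosomal protein genes of at least 10 CPM, 54 (73.0%) were lowest in both mice of litter 1, against 9.04% of all 8876 genes at that level. Rps3, a protein of the small subunit and the highest of the family, had 14569, 16161, 26467, 25166, 26523 and 21703 reads in mice 3, 4, 7, 8, 10 and 11. Of the 80 genes in the files, 6 stayed under 10 CPM, among them Rpl24 and Rps10, components of the ribosome of every cell, with 1 to 29 and 19 to 66 reads a mouse. Like the zeros of mt-Co3 and its neighbours, these values are given as counted and are not read as low expression.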
